A study of Homo sapiens with 21 samples.

Results

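The response of breast cancer cells to a high extracellular calcium concentration was examined gene by gene, beyond the cell cycle. The genes were those with a mean of at least 0.5 FPKM (fragments scaled by gene length and by library size, a level per length) over the 3 calcium libraries and the 3 control libraries, which were 14376 of the 58735 genes in the table. The cells were MDA-MB-453, an established line from a human breast cancer, labelled with genotype WT, that is of luminal type and lacks the estrogen receptor. All libraries come from this single line, which had been kept in medium with charcoal-stripped serum before treatment. The calcium group received 10 mM calcium for 24 h in serum-free IMEM, and the control group is labelled as untreated. The medium of the control is not stated, so calcium and any change of serum cannot be told apart. Libraries treated with 10 µM DES (diethylstilbestrol, used by the study as an antagonist of the estrogen-related receptor ESRRB) for 24 h, and with DES followed 3 h later by 10 mM calcium for 24 h, were used for a comparison of the calcium response without and with DES. The time with DES may have differed between these groups and cannot be told apart from calcium. Each group holds 3 libraries of the 21 in the series, and nothing says that they came from separate cultures, so p-values measure the spread between these libraries, which may be technical.

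Calcium is both an ion of the extracellular fluid and an intracellular messenger. A rise of calcium in the cytoplasm is bound by calmodulin, which activates kinases and the phosphatase calcineurin. These reach the transcription factors CREB, SRF and NFAT, and the mitogen-activated protein (MAP) kinases, and the first genes to respond are the immediate early genes, most of which encode transcription factors such as FOS and EGR1. In epithelia, extracellular calcium also holds cadherin junctions together and is known for driving keratinocytes to differentiate. The lists used below follow these routes outward, from early transcription factors to secreted ligands, calcium-binding proteins, stress pathways, metabolism, cell identity and cell shape.

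Fragments on genes, recovered from the FPKM values, numbered 28424805, 18431296 and 15246217 in control replicates 1 to 3 and 22056579, 16987426 and 21145205 in calcium replicates 1 to 3. All 10 markers of the luminal line passed the filter, and their summed level was 1759 to 2286 FPKM in the control and 2598 to 3608 FPKM with calcium. Of these, 3 were called, all higher and all keratins (KRT8, KRT18 and KRT19), and the median log2 fold change of the 10 was 0.055. ESR1 and PGR, the estrogen and progesterone receptors, were under the filter. None of the endothelial or leukocyte markers passed the filter, and 1 of the 6 fibroblast markers (COL1A1) did, with summed levels of 10.5 to 12.1 FPKM in the control and 14.1 to 17.2 FPKM with calcium while LUM was at 0 in both groups. In bulk RNA, fewer cells of a kind and less RNA per cell cannot be told apart. Calcium replicate 2 held the highest calcium value for 43.8% of the genes called higher and for 30.7% of all genes tested. In that library mitochondrially encoded genes took 4.88% of the fragments, compared with 6.91% to 8.19% in the other 5 libraries, and 39629 genes were at 0, compared with 33876 to 37288. The part of this in the results was not tested. Control replicate 3 stood apart for interferon-responsive genes, which were low there, and for HMOX1 and EGR1, which were high.

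Of the 14376 genes, 1368 differed between calcium and control at an adjusted p under 0.05 (limma on log2(FPKM + 0.1), Benjamini-Hochberg adjustment, two-sided), which is 9.52% of the genes tested. Calcium raised 879 of them (6.11% of the genes tested) and lowered 489 (3.4%). The rises were also larger, since 126 genes rose by at least 3 on the log2 scale and 13 fell by as much. The median log2 fold change was 1.39 among the genes called higher and -1.27 among those called lower. With libraries scaled by their total fragments on genes the split was 697 higher and 718 lower (49.3% higher, against 64.3%), with a median shift of -0.12 over all genes. Without 1 library the count of called genes was 814 (calcium replicate 1), 488 (calcium replicate 2), 434 (control replicate 1) and 452 (control replicate 2), so counts below are given with any library whose removal changes them by more than 1.5 times. The filter uses the mean of both groups, so a gene under 0.5 FPKM in the control could pass only through its calcium level and had to have the higher mean with calcium. This was so for 750 of the genes tested and 150 of those called higher. Where a list holds more than 1 such gene, its count is also given for the members of at least 0.5 FPKM in both groups. Over all genes tested, 5.51% of those above this level in both groups rose. The counts of the lists below are to be read beside these shares of all genes. As the lists were chosen with earlier results known, a larger share is no support for a change of a list.

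**Figure D1:**
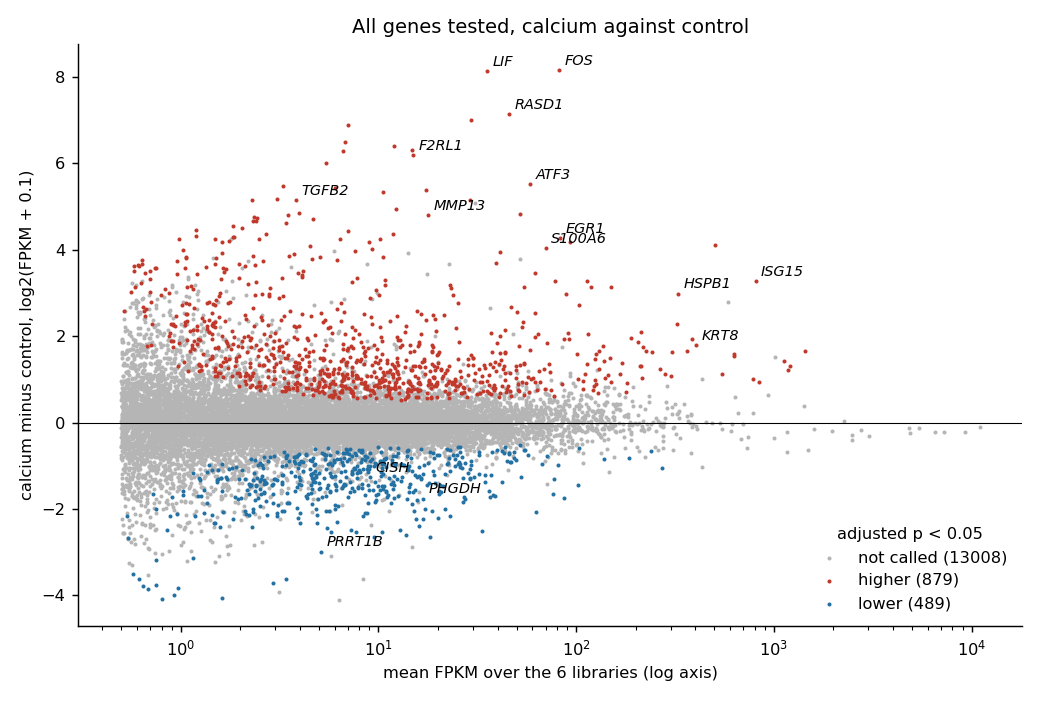
Change with calcium of every gene tested (y axis, calcium minus control in log2(FPKM + 0.1)) against its mean level over the 6 libraries (x axis, log axis). Coloured points are the 879 genes called higher and the 489 called lower, and the called rises reach further from 0 than the called falls.

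The listed AP-1 genes that could be tested rose. AP-1 is a dimeric transcription factor of FOS and JUN proteins, which also pair with ATF3 and with the BATF and small MAF proteins. Of 14 genes listed for these families, chosen with earlier results known, 13 passed the filter. All 13 were called higher, against 6.11% of all genes, with a median log2 fold change of 2.66 and a range of 0.78 to 8.15. Of these, 4 passed the filter only through calcium, and the 9 above its level in both groups all rose, with a median of 1.63. FOS (ENSG00000170345, chr14:75278774-75282230 on GRCh38) measured 0.392, 0.512 and 0.355 FPKM in the control libraries and 97.9, 277 and 116 FPKM with calcium. That was the largest of the rises named by the rule for genes outside the cell cycle list (log2 fold change 8.15 ± 0.37, adjusted p = 0.000288, limma). FOSB, its paralogue, measured 0.173, 0.281 and 0.218 FPKM in the control and 17.9, 51.6 and 18.1 FPKM with calcium (log2 fold change 6.32 ± 0.41, adjusted p = 0.00103). ATF3, a stress-responsive member, went from 1.78, 1.3 and 2.67 FPKM to 48.5, 235 and 61 FPKM (log2 fold change 5.52 ± 0.57, adjusted p = 0.00345). For each of the 3 genes the lowest calcium library lay far above the highest control library, and calcium replicate 2 was the highest. For FOS and FOSB the rule that chose the largest rises asks for groups without overlap. The count of called AP-1 genes was 7 without calcium replicate 2, without control replicate 1 or without control replicate 2.

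Most of the other immediate early genes tested rose. Of 20 listed, 18 were tested, 14 were called higher and none lower, and the median log2 fold change was 2.53. The other 4 were not called, and ARC, named after its values were seen, was the only 1 with a negative value (-0.41). Of the 15 above the filter level in both groups, 11 rose, with a median of 2.28. EGR1, a zinc finger factor induced through SRF, measured 3.51, 6.05 and 21.2 FPKM in the control and 176, 99.4 and 191 FPKM with calcium (log2 fold change 4.27 ± 0.60, adjusted p = 0.00797). Control replicate 3 of EGR1 was well above the other two and still lay below every calcium library. The nuclear receptors NR4A1, NR4A2 and NR4A3, which are transcribed within minutes of calcium or cAMP signals, all rose. NR4A1 measured 1.05, 1.42 and 1.77 FPKM in the control and 35.3, 87.7 and 47.3 FPKM with calcium (log2 fold change 5.15 ± 0.34, adjusted p = 0.00103). NR4A2 and NR4A3 had log2 fold changes of 4.94 and 5.47, NR4A3 from under 0.04 FPKM in each control library. KLF4, a factor of epithelial differentiation and of pluripotency, measured 5.29, 3.95 and 7.53 FPKM in the control and 22.1, 43.5 and 30.2 FPKM with calcium (log2 fold change 2.49 ± 0.31, adjusted p = 0.0049). On the other strand of NR4A1 the transcript AC025259.3 rose as well (6.0), and since the strand kept by the libraries is stated as either of 2 kinds, the reads of the 2 genes cannot be assigned with certainty.

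**Figure D2:**
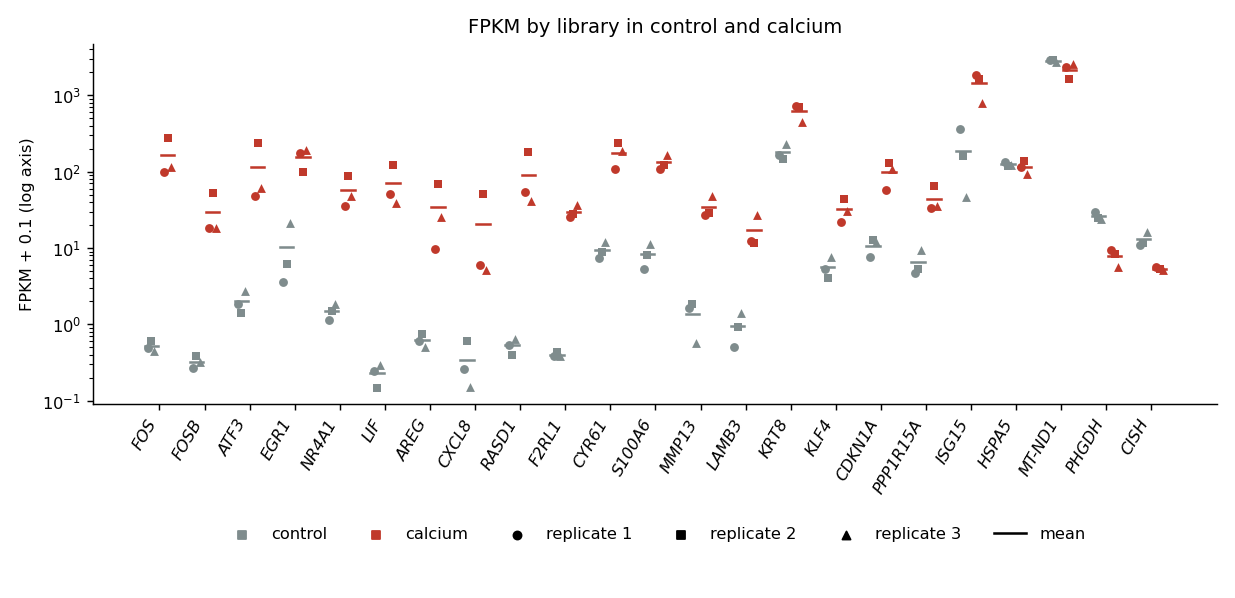
FPKM of 23 genes in each of the 3 control and 3 calcium libraries (y axis, FPKM + 0.1, log axis), with a line at the group mean. From FOS to ISG15 the groups do not overlap and calcium is higher, HSPA5 overlaps, and MT-ND1, which was not called, PHGDH and CISH are lower with calcium in every library. The rule for the largest rises asks for no overlap in FOS, FOSB, LIF, RASD1 and F2RL1.

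Inhibitors of MAP kinase signalling, which are themselves induced by it, were tested for 17 of 18 listed genes. Of these, 8 were called higher and none lower, with a median log2 fold change of 0.98. DUSP1, a phosphatase that inactivates MAP kinases, measured 4.24, 2.39 and 10.5 FPKM in the control and 68.5, 99.1 and 61 FPKM with calcium (log2 fold change 3.94 ± 0.48, adjusted p = 0.00484). ERRFI1, an inhibitor of the EGF receptor, measured 15, 20.8 and 27.9 FPKM and then 149, 265 and 206 FPKM (log2 fold change 3.28 ± 0.28, adjusted p = 0.00238). Both genes were higher in each calcium library than in any control library. Of the 24 genes listed as targets of cAMP and CREB, 15 were tested and 3 were called higher, all 3 among the larger rises of the data. RASD1, a Ras-related GTP-binding protein, measured 0.442, 0.298 and 0.554 FPKM in the control and 54.2, 179 and 41 FPKM with calcium (log2 fold change 7.14 ± 0.52, adjusted p = 0.0013). GEM, a small GTPase that restrains calcium channels, rose by 6.3 from 2 or 3 fragments in each control library, so the size of its change is uncertain. CGA, the shared subunit of the glycoprotein hormones, rose by 5.19 on the log2 scale from at most 0.0542 FPKM in the control. All 3 passed the filter only through calcium, and none of the 11 genes above its level in both groups was called (limma). The median of the 15 genes was 0.54, 12 were not called, and 5 were called without calcium replicate 1.

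The promoters of 5 genes, from the early genes above and the ligands described next, are shown as examples that hold motifs bound by CREB, SRF or AP-1. The sequences run from 250 bases before to 50 bases after the start in RefSeq (GRCh38.p14), in the sense of the gene, with motif letters in capitals. The motifs searched on both strands were the CRE (TGACGTCA), the AP-1 site (TGANTCA), the CArG box bound by SRF (CC, 6 bases of A or T, GG), the element of estrogen-related receptors (TNAAGGTCA) and the NFAT core (GGAAAA), and no letter string of the CRE is at the same time an AP-1 site. EGR1 (chr5:138465229-138465528, plus strand) holds 2 CArG boxes that begin 105 and 83 bases before the start. DUSP1 (chr5:172771146-172771445, minus strand) holds a CRE, as does AREG (chr4:74444886-74445185, plus strand), and CGA (chr6:87095057-87095356, minus strand) holds 2. CXCL8 (chr4:73740319-73740618, plus strand) holds an AP-1 site.
EGR1: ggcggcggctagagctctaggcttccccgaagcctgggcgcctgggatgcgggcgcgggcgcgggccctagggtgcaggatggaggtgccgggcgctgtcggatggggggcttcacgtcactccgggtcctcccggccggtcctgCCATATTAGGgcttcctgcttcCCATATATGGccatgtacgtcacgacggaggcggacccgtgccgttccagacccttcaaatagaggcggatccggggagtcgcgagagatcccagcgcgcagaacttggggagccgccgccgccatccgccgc
DUSP1: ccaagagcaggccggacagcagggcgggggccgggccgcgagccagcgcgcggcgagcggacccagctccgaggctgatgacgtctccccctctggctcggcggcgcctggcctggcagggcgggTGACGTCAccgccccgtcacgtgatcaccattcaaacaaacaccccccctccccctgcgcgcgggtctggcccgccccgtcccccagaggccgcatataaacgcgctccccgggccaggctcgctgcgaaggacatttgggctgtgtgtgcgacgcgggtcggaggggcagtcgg
CGA: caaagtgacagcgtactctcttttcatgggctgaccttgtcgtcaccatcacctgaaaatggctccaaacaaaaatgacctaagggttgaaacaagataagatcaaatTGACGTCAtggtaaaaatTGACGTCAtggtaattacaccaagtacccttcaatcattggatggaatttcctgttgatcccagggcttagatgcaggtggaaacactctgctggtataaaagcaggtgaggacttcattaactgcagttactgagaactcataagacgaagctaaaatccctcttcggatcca
AREG: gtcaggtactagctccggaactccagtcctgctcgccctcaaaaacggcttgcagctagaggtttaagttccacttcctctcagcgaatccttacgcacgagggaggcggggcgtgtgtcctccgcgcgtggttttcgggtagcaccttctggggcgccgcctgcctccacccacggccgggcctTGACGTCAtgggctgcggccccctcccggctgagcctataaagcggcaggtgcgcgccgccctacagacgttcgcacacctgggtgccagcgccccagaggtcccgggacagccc
CXCL8: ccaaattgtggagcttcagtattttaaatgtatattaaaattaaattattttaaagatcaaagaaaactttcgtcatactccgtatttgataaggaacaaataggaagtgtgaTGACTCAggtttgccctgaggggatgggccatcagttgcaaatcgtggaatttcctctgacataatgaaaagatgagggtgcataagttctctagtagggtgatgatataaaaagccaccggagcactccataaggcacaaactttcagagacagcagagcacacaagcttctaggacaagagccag
Most of the early genes named hold no CRE, AP-1 site or CArG box in this window. Of 12 named genes called on the lists of AP-1, other early, MAP kinase and cAMP genes with a matched promoter, 3 hold a CRE, an AP-1 site or a CArG box (EGR1, DUSP1 and CGA), while FOS, FOSB, ATF3, NR4A1, NR4A3, RASD1, ERRFI1, DUSP10 and KLF4 hold none. Over all named genes 18 of 105 hold one, among them HLF (a CRE) and MXD3 (an AP-1 site), which fell with calcium. A promoter was matched for 9122 of the 14376 genes tested, 603 of them called higher and 345 called lower. The AP-1 site was present in 8.29% of the promoters of genes called higher, 2.90% of those called lower and 4.46% of all. CArG boxes were present in 2.16%, 1.16% and 0.932% in the same order, and the CRE in 3.65%, 3.77% and 3.35%. For the element of estrogen-related receptors the shares were 0.663%, 0.290% and 0.449%, which rest on 4, 1 and 41 promoters. The NFAT core was present in 19.6%, 25.2% and 19.8%. These shares are a description of a 300-base window and were not tested.

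Several secreted ligands rose. Of 28 listed cytokines and growth factors, 15 were tested, 9 were called higher and none lower, with a median log2 fold change of 2.98. As 7 of the 15 passed the filter only through calcium, LIF and CXCL8 among them, this median and count are no support for a change of the list. Of the 8 above the filter level in both groups, 4 rose, with a median of 0.79. LIF (ENSG00000128342, chr22:30240447-30246851), a cytokine of the interleukin-6 family that keeps embryonic stem cells undifferentiated in culture, measured 0.148, 0.0477 and 0.198 FPKM in the control and 50.4, 123 and 39.2 FPKM with calcium (log2 fold change 8.14 ± 0.45, adjusted p = 0.000788). The transcript AC004264.1, on the other strand over LIF, measured 0 in every control library and 10.2, 25.9 and 6.13 FPKM with calcium, at least 80.6-fold higher on 3 fragments in each control library (46.7-fold without calcium replicate 2), and its reads cannot be assigned to 1 strand with certainty. AREG (amphiregulin), a ligand of the EGF receptor, measured 0.507, 0.661 and 0.404 FPKM in the control and 9.57, 67.9 and 25.6 FPKM with calcium (log2 fold change 5.38 ± 0.62, adjusted p = 0.00391). CXCL8, the neutrophil chemokine interleukin-8, measured 0.163, 0.50 and 0.0532 FPKM in the control and 5.87, 51.3 and 5.03 FPKM with calcium (log2 fold change 5.33 ± 0.90, adjusted p = 0.0141). In AREG and CXCL8 calcium replicate 2 was well above the others, although the groups did not overlap. IL6 and TNF were at 0 in every control library and were not called. Without control replicate 1 the number of cytokine genes called was 5.

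The gp130 receptors bind LIF, interleukin-6 and related cytokines and signal through JAK kinases and STAT3. Among 18 genes of these receptors and of STAT3 feedback, 16 were tested, 2 rose and 1 fell, and the median log2 fold change was 0.01. IL6R, the interleukin-6 receptor, measured 2.68, 2.11 and 4.53 FPKM in the control and 13, 10.1 and 15.4 FPKM with calcium (log2 fold change 2.06 ± 0.29, adjusted p = 0.00809). CISH, an inhibitor of STAT5 signalling and one of its targets, fell from 11, 11.7 and 16 FPKM to 5.54, 5.27 and 5.0 FPKM (log2 fold change -1.26 ± 0.18, adjusted p = 0.00852). JAK1, the kinase bound to these receptors, rose by 0.56 on the log2 scale. LIFR, the receptor of LIF, was under the filter in both groups, at no more than 0.106 FPKM.

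F2RL1, a G protein-coupled receptor cut open by trypsin-like proteases, combined a large change with a small spread. It measured 0.282, 0.336 and 0.286 FPKM in the control and 25.1, 27.6 and 36 FPKM with calcium (log2 fold change 6.19 ± 0.19, adjusted p = 3.42e-05). The 3 libraries of each group lay close together. KRT81, a hair keratin, rose by 7.01 on the log2 scale, from 0.128, 0.319 and 0.251 FPKM to 11.4, 104 and 59.7 FPKM. It overlaps KRT86 on the other strand and belongs to a family of near-identical keratins, so its reads are uncertain. AL513304.1, a transcript annotated inside ADARB2, rose by 6.4.

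Targets of NF-kappa-B, the factor behind many inflammatory genes, were tested for 13 of 16, of which 5 rose and none fell. The median log2 fold change was 1.41. Of these genes 5 passed the filter only through calcium, and of the other 8, 2 rose, with a median of 0.74. TNFAIP3, a feedback inhibitor, measured 0.0674, 0.0375 and 0.024 FPKM in the control and 1.78, 7.98 and 1.31 FPKM with calcium (log2 fold change 4.29 ± 0.70, adjusted p = 0.0129). RELB, a subunit of the factor, measured 0.53, 0.889 and 0.179 FPKM and then 4.62, 7.92 and 2.91 FPKM (log2 fold change 3.12 ± 0.53, adjusted p = 0.0141). NFKBIA, the inhibitor that is itself a target, measured 22.1, 22.4 and 19.6 FPKM and 45.7, 103 and 32.5 FPKM and was not called (adjusted p = 0.0749, limma). Calcium replicate 2 was the highest in all 3 genes. The count was 3 without calcium replicate 2 or without control replicate 1.

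All 18 listed interferon-responsive genes had higher values with calcium, beside a large spread within the control. Most of these genes encode antiviral proteins induced by interferons. Each of the 18 was higher in every calcium library than in any control library (16.8% of all genes tested were), 9 were called higher, none lower, and the median log2 fold change was 3.03. ISG15, a ubiquitin-like modifier, measured 358, 161 and 46.2 FPKM in the control and 1861, 1637 and 791 FPKM with calcium (log2 fold change 3.27 ± 0.70, adjusted p = 0.0297). IFIT3 measured 3.42, 0.95 and 0.138 FPKM in the control and 24.4, 12.3 and 19.9 FPKM with calcium (log2 fold change 4.25 ± 0.86, adjusted p = 0.0248), and MX1, an antiviral GTPase, measured 1.4, 0.604 and 0.119 FPKM and then 12.5, 5.49 and 4.76 FPKM (log2 fold change 3.51 ± 0.69, adjusted p = 0.0226). In the 3 genes control replicate 1 was highest and control replicate 3 lowest, and the control libraries spanned a wider ratio than the calcium libraries. The summed level of the 18 genes was 1115, 518 and 163 FPKM in the control and 4022, 3201 and 2270.1 FPKM with calcium. Without 1 library the count of called genes was 1 (calcium replicate 1), 0 (calcium replicate 2), 3 (calcium replicate 3), 14 (control replicate 1), 0 (control replicate 2) and 10 (control replicate 3). In the full comparison all 18 had an unadjusted p under 0.05 and limma-voom on recovered fragments called 17.

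**Figure D3:**
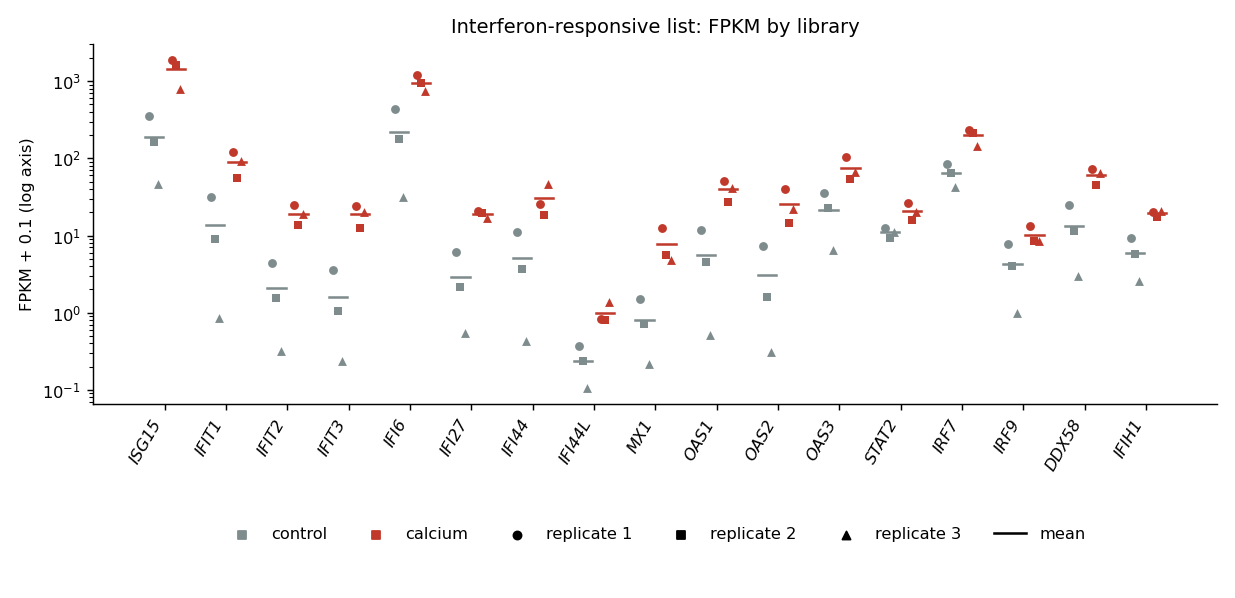
FPKM of 17 interferon-responsive genes in each of the 3 control and 3 calcium libraries (y axis, FPKM + 0.1, log axis), with a line at the group mean. Every calcium point lies above every control point of its gene, and the control points of a gene are further apart than its calcium points in ISG15, IFIT3 and MX1.

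Among developmental pathways some members moved, while most of those tested on each list were not called. The called shares were 32% (TGF-beta and BMP), 26.7% (Notch), 23.8% (Wnt) and 33.3% (YAP targets), beside 9.52% of all genes. For TGF-beta and BMP signalling, 25 of 35 genes were tested, 6 rose, 2 fell and the median log2 fold change was 0.21. Without the 4 that passed the filter only through calcium, 4 of 21 rose and 2 fell, with a median of -0.02. TGFB2, a ligand, measured 0.0901, 0.0276 and 0.0822 FPKM in the control and 1.68, 9.61 and 11.5 FPKM with calcium (log2 fold change 5.15 ± 0.70, adjusted p = 0.00679), while TGFB1 measured 0.22, 0.439 and 0.15 and 0.54, 1.43 and 0.648 FPKM and was not called. TGFBR2, the ligand-binding receptor, rose by 2.46, and ID3, an inhibitor of differentiation induced by BMP, rose by 1.81. The count was 5 without any 1 of the calcium libraries or without control replicate 3, 4 without control replicate 2 and 3 without control replicate 1.

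In Notch signalling, where membrane-bound ligands activate a receptor on the next cell, 15 of 24 genes were tested, 2 rose and 2 fell. The ligand DLL4 measured 0.494, 0.418 and 0.737 FPKM in the control and 5.95, 13.7 and 9.08 FPKM with calcium (log2 fold change 3.85 ± 0.34, adjusted p = 0.00238). JAG1, a ligand of the other class, rose by 1.86 on the log2 scale, and the ligand DLL1 fell from 7.88, 8.55 and 9.47 FPKM to 5.53, 5.27 and 4.96 FPKM (log2 fold change -0.71 ± 0.15, adjusted p = 0.0286). NRARP, a feedback inhibitor that Notch itself induces, fell from 37, 33.1 and 24 FPKM to 15.9, 16.8 and 10.8 FPKM (log2 fold change -1.11 ± 0.24, adjusted p = 0.0291). Of the Notch ligands named, DLL4 and JAG1 were thus higher and DLL1 lower, with no overlap between the groups. The count of Notch genes called was 6 without calcium replicate 3 and 2 without calcium replicate 1, calcium replicate 2, control replicate 1 or control replicate 2.

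The Wnt list gave 3 rises and 2 falls among 21 tested of 33, with a median of 0.09. DKK1, a secreted Wnt antagonist, was at 0 in every control library and measured 0.366, 8.97 and 1.68 FPKM with calcium, at least 58.4-fold higher on 3 fragments in each control library (adjusted p = 0.0466, limma). The bound was 16.3-fold without calcium replicate 2. WNT9A rose by 1.47 and NKD2, an inhibitor of Dishevelled, by 1.13. By limma no Wnt gene was called without calcium replicate 2, control replicate 1 or control replicate 2, 1 was without control replicate 3, and 2 were without calcium replicate 1 or calcium replicate 3. In the full comparison 7 Wnt genes had an unadjusted p under 0.05 and limma-voom on recovered fragments called 4. Targets of the mechanosensitive factor YAP were tested for 12 of 15, and 3 rose and 1 fell. The 3 were matricellular CCN proteins. CYR61 measured 7.32, 8.79 and 11.9 FPKM in the control and 108, 237 and 186 FPKM with calcium (log2 fold change 4.18 ± 0.31, adjusted p = 0.00131). CTGF measured 0, 0.0202 and 0.103 FPKM and then 1.4, 3.18 and 6.36 FPKM, and NOV measured 0.833, 0.673 and 1.06 FPKM and then 12.5, 13.5 and 42.6 FPKM, with log2 fold changes of 4.55 and 4.36.

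None of the listed genes that move or sense calcium passed the test. Of 34 pumps, channels and sensors listed, 25 were tested and limma called none in either direction, 4 had an unadjusted p under 0.05 and limma-voom called 1. Their median log2 fold change was -0.08 and their range -1.0 to 1.22, against a median of -0.00 over all genes tested. Without calcium replicate 1, 2 of them were called and without calcium replicate 3, 1. SLC24A3, a sodium/calcium exchanger that removes calcium from the cytoplasm, is not on this list and was picked with its values known. It fell from 8.32, 8.27 and 7.95 FPKM in the control to 2.44, 2.94 and 3.12 FPKM with calcium (log2 fold change -1.5 ± 0.16, adjusted p = 0.00368). CASR, the calcium-sensing receptor of the plasma membrane, measured 0.00258, 0 and 0.0202 FPKM in the control and was at 0 in the calcium libraries, too few fragments for a comparison. Of the calmodulin, calcineurin and NFAT genes, 16 of 23 were tested and 2 rose (12.5%, beside 9.52% of all genes called). RCAN1, an inhibitor of calcineurin that NFAT induces, measured 2.81, 3.0 and 3.55 FPKM in the control and 7.6, 15.1 and 9.94 FPKM with calcium (log2 fold change 1.72 ± 0.26, adjusted p = 0.00966). CALM2, one of the calmodulin genes, measured 80.9, 88.6 and 69.8 FPKM and then 113, 143 and 157 FPKM (log2 fold change 0.78 ± 0.18, adjusted p = 0.0376). Only 1 of these genes was called without calcium replicate 2, calcium replicate 3 or any 1 control library.

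Genes of the S100 and annexin families, most of which encode calcium-binding proteins, rose in part. Of 22 listed, 18 were tested, 9 rose and none fell, with a median log2 fold change of 1.17 and a summed level of 1599 to 2425 FPKM in the control and 4092 to 4689 FPKM with calcium. Of the 16 above the filter level in both groups, 7 rose. S100A6 measured 5.29, 7.95 and 11.3 FPKM in the control and 109, 123 and 165 FPKM with calcium (log2 fold change 4.04 ± 0.29, adjusted p = 0.0013). S100A10, the partner of annexin A2 at the plasma membrane, measured 9.4, 17 and 32.6 FPKM and then 67.9, 115 and 130.2 FPKM (log2 fold change 2.53 ± 0.45, adjusted p = 0.0158). ANXA3 rose by 3.75 on the log2 scale. S100A1 measured 1.15, 0.969 and 1.14 FPKM in the control and 0.769, 1.02 and 1.03 FPKM with calcium, overlapping values that were not called.

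**Figure D4:**
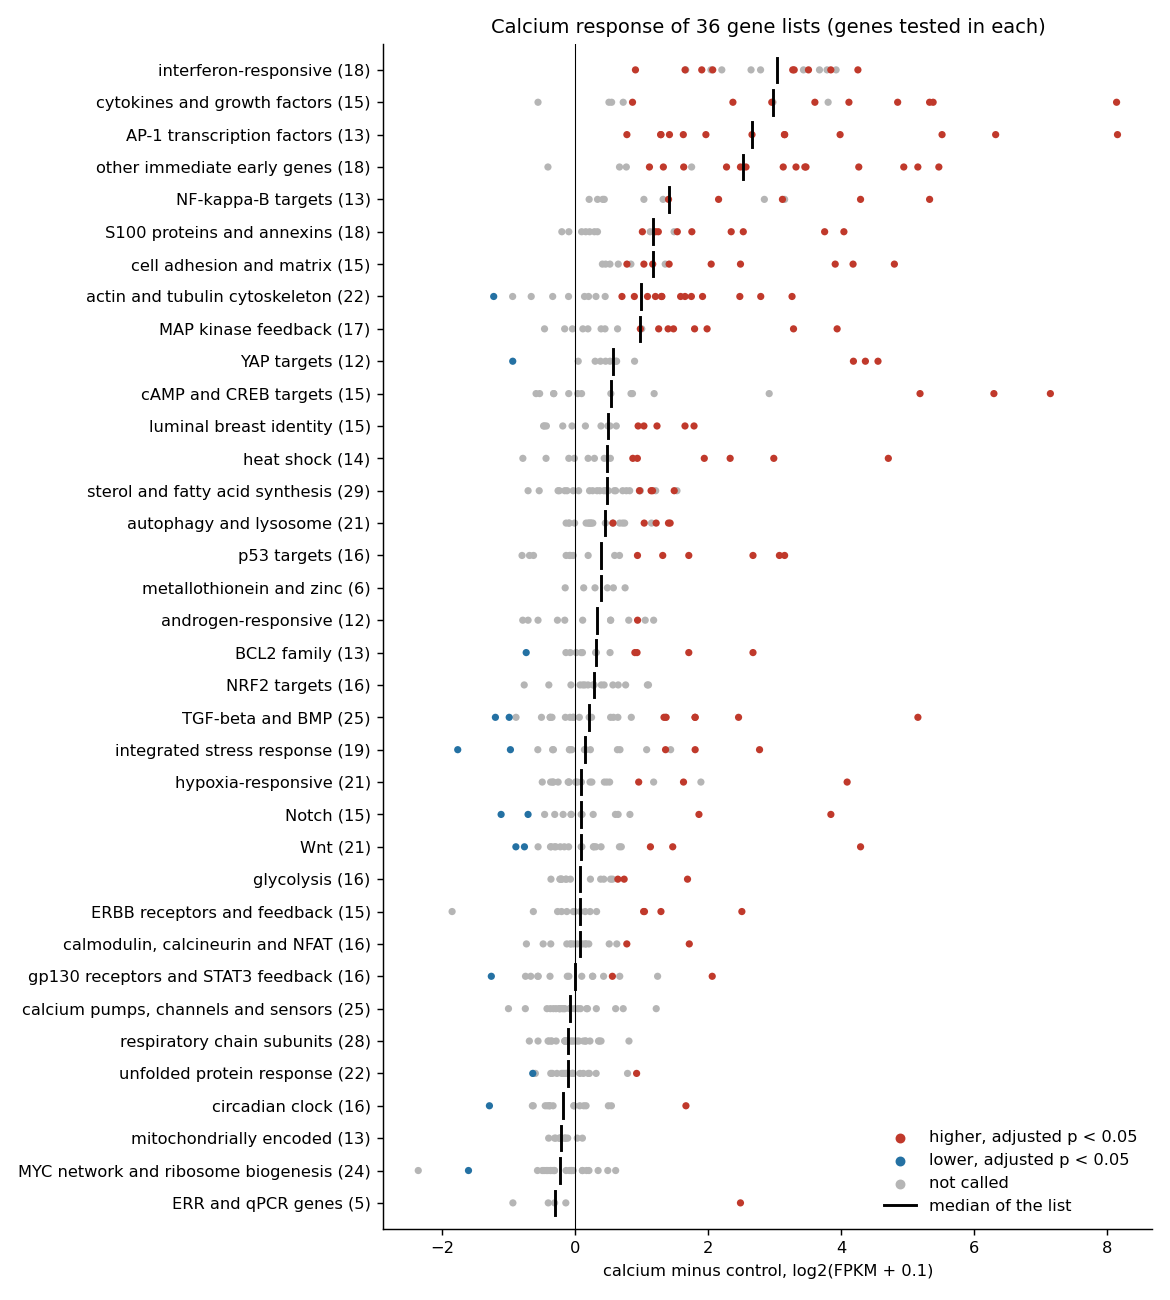
Change with calcium of the genes tested in 36 lists (x axis, calcium minus control in log2(FPKM + 0.1)), a point per gene, coloured by its call, and a bar at the median of the list. The AP-1 list lies wholly to the right of 0, while the lists of calcium pumps, respiratory chain subunits and metallothionein genes have no called gene.

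The unfolded protein response, by which the endoplasmic reticulum raises its chaperones, was tested in all 22 genes, with 1 rise (EDEM1, 0.93) and 1 fall (PDIA4, -0.63). These are 9.09% of its genes, near the 9.52% of all genes tested. HSPA5, its main chaperone, measured 133, 120.0 and 123 FPKM in the control and 115, 136 and 91.7 FPKM with calcium, overlapping values (log2 fold change -0.15 ± 0.18). The median of the list was -0.11. For the integrated stress response, the pathway of ATF4, 19 of 22 genes were tested, 3 rose and 2 fell. PPP1R15A, the phosphatase subunit that ends the response, measured 4.56, 5.22 and 9.31 FPKM in the control and 33.3, 63.8 and 34.9 FPKM with calcium (log2 fold change 2.77 ± 0.34, adjusted p = 0.00473), and CHAC1, a glutathione-degrading enzyme, rose by 1.81. PHGDH, the first enzyme of serine synthesis and a target of ATF4, fell from 29.3, 24.6 and 23.8 FPKM to 9.24, 8.27 and 5.59 FPKM (log2 fold change -1.76 ± 0.21, adjusted p = 0.00452). ATF4 measured 158, 129.7 and 213 FPKM and 184, 202 and 158 FPKM and was not called. The first count was 0 without calcium replicate 1, control replicate 1 or control replicate 2, 1 without calcium replicate 2 and 3 without control replicate 3. The second was 3 without calcium replicate 1 or 2, 2 without control replicate 1 or 2 and 8 without control replicate 3.

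Heat shock genes were tested in 14 of 15, and 6 rose and none fell. HSPB1, a small heat shock protein, measured 59.5, 55.7 and 100.3 FPKM in the control and 444, 893 and 420.4 FPKM with calcium (log2 fold change 2.99 ± 0.35, adjusted p = 0.00397). HSPA1A measured 29.2, 34.4 and 44.1 FPKM and then 100.2, 241 and 105 FPKM (log2 fold change 1.94 ± 0.35, adjusted p = 0.0165), and its near-identical copy HSPA1B rose by 2.33. HSPA6 rose by 4.71 from under 0.3 FPKM in each control library. Reads can be shared among these HSPA genes, which leaves the level of each uncertain. The count was 3 without control replicate 1 or control replicate 2.

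Genes of the oxidative (NRF2) and metal responses did not pass the test. By limma none of 16 tested NRF2 targets of 20, and none of 6 tested metallothionein and zinc genes of 11, was called. The unadjusted p was under 0.05 for 3 and 0 genes and limma-voom called 1 and 0, with median log2 fold changes of 0.28 and 0.39. HMOX1, heme oxygenase, measured 11.6, 5.2 and 349 FPKM in the control and 95.5, 65.5 and 32.9 FPKM with calcium, and control replicate 3 exceeded every calcium library. Without control replicate 3, 4 NRF2 targets were called. MT1E, a metallothionein, was under the filter. Among 22 hypoxia-responsive genes, 21 were tested and 3 rose (14.3%, beside 9.52% of all genes called). ADM, the vasodilator adrenomedullin, measured 0.364, 0.296 and 0.49 FPKM in the control and 5.42, 7.3 and 13 FPKM with calcium (log2 fold change 4.09 ± 0.35, adjusted p = 0.00236). ERO1A, an oxidase of the endoplasmic reticulum, rose by 1.63 and P4HA2, a collagen hydroxylase, by 0.96, and the median of the list was 0.10.

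Of the targets of p53, the tumour suppressor, 16 of 18 were tested, 6 rose and none fell. CDKN1A, the cyclin-dependent kinase inhibitor p21, measured 7.48, 12.6 and 11.9 FPKM in the control and 57.9, 129 and 108 FPKM with calcium (log2 fold change 3.15 ± 0.33, adjusted p = 0.00358). PLK3, a stress-induced kinase, measured 1.56, 2.5 and 1.62 FPKM and then 12.7, 27.9 and 12.2 FPKM (log2 fold change 3.07 ± 0.35, adjusted p = 0.00381). The pro-apoptotic genes BBC3 and PMAIP1, which stand on this list and on that of the BCL2 family, rose by 1.71 and 2.68. In the BCL2 family 13 of 16 were tested, 4 rose and 1 fell, and BIK, another pro-apoptotic member, measured 23.6, 19.3 and 24.5 FPKM in the control and 38.4, 49.8 and 41 FPKM with calcium (log2 fold change 0.93 ± 0.17, adjusted p = 0.0167). The other 2 called members, named after their values were seen, were the anti-apoptotic MCL1, which rose (log2 fold change 0.90 ± 0.18, adjusted p = 0.0253), and the pro-apoptotic BCL2L11, which fell (log2 fold change -0.73 ± 0.18, adjusted p = 0.0446). BCL2 itself was under the filter. Only 1 member of this family was called without control replicate 1 or control replicate 2, 2 without calcium replicate 1 or 2, and 3 without control replicate 3. For autophagy and lysosomes 21 of 22 were tested, 5 rose and none fell, with MAP1LC3B at 8.56, 6.41 and 11.7 FPKM in the control and 19.1, 19.7 and 22 FPKM with calcium (log2 fold change 1.22 ± 0.22, adjusted p = 0.0183). WIPI1 and the protease CTSL rose by 1.43 and 1.41. By limma no autophagy gene was called without calcium replicate 2 or control replicate 1, 1 was without control replicate 2, and 3 were without calcium replicate 3. In the full comparison 11 had an unadjusted p under 0.05 and limma-voom called 5.

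Of the lists of energy metabolism only glycolysis held called genes. For glycolysis 16 of 18 genes were tested, 3 rose (18.75%, beside 6.11% of all genes) and none fell, with a median log2 fold change of 0.08. PFKP, the platelet form of phosphofructokinase, measured 23.6, 34.6 and 25.6 FPKM in the control and 89.9, 92.4 and 85.5 FPKM with calcium (log2 fold change 1.69 ± 0.18, adjusted p = 0.00347). ENO2 and ALDOA rose by 0.74 and 0.64, and HK1 measured 46.7, 41.7 and 55.3 FPKM and 50.1, 43 and 38.3 FPKM, overlapping values. Only 1 glycolytic gene was called without calcium replicate 1 or 2 or without control replicate 1 or 2. None of the 28 nuclear respiratory chain genes and none of the 13 mitochondrially encoded genes was called by limma or by limma-voom, and 4 and 0 of them had an unadjusted p under 0.05. Without calcium replicate 3, 1 respiratory chain gene was called. Their median log2 fold changes were -0.10 and -0.21, and MT-ND1 measured 2854, 2848 and 2687 FPKM in the control and 2308, 1617 and 2571 FPKM with calcium, with calcium replicate 2 the lowest.

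Of 30 genes of sterol and fatty acid synthesis, 29 were tested, 4 rose and none fell, while 16 were higher in every calcium library than in any control library and 2 lower (16.8% and 13.7% of all genes tested were). HMGCS1, an early enzyme of the pathway, measured 67.9, 77.7 and 73.9 FPKM in the control and 156, 154 and 362 FPKM with calcium (log2 fold change 1.49 ± 0.33, adjusted p = 0.0319). FDPS, which makes farnesyl diphosphate, measured 44.7, 50.8 and 40.5 FPKM and then 86.2, 103 and 117 FPKM (log2 fold change 1.17 ± 0.17, adjusted p = 0.00891). In both genes every calcium library was above every control library. The count was 2 without calcium replicate 2 and 1 without control replicate 1 or 2.

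On the list of luminal identity the called genes were keratins (KRT7, KRT8, KRT18 and KRT19) and the cadherin CDH1. Of 18 listed, 15 were tested, 5 rose (33.3%, beside 6.11% of all genes) and none fell, with a median of 0.50. The change was negative for 5 of the 15. KRT8, a keratin of simple epithelia, measured 165, 146 and 229.8 FPKM in the control and 726, 705 and 447 FPKM with calcium (log2 fold change 1.79 ± 0.26, adjusted p = 0.00852). KRT18, its partner, measured 163, 144 and 215 FPKM and then 611, 656 and 393 FPKM (log2 fold change 1.65 ± 0.25, adjusted p = 0.00999), and KRT7 rose by 1.23. The loci of KRT8 and KRT18 overlap, which leaves the share of each uncertain. The count was 2 without calcium replicate 2 or control replicate 1, and 3 without calcium replicate 1 or control replicate 2. Of 22 androgen-responsive genes, 12 were tested and 1, the elongation factor ELL2, rose (0.94). That is 8.33% of those tested, near the 9.52% of all genes called. ELL2 was not called without calcium replicate 2 or 3 or without any 1 of the control libraries. Among ERBB receptors and their partners 15 of 18 were tested and 4 rose, including the adaptors GAB2 (from 0.946, 0.923 and 1.64 to 5.39, 6.97 and 8.75 FPKM, log2 fold change 2.51 ± 0.28, adjusted p = 0.00381), GRB10 (1.29) and IRS1 (1.04). EGFR was under the filter. The ERBB count was 1 without calcium replicate 3, control replicate 1 or control replicate 2, and 2 without any of the other 3 libraries.

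Most of the listed estrogen-related receptors, their coregulators and the genes also measured by qPCR were too low to test. Only 5 of the 16 passed the filter. The list joins genes that the study measured by qPCR, in this line or only in HEK293T cells (a human embryonic kidney line), with the paralogues ESRRA and ESRRG and coregulators of these receptors (PPARGC1A, PPARGC1B and NRIP1). KLF4 was the only 1 of the 5 called. ESRRB, the receptor of interest to the study, measured 0.0261, 0.0878 and 0.0408 FPKM in the control and 0, 0.116 and 0 FPKM with calcium, and ESRRG stayed under 0.5 FPKM in all 6 libraries. ESRRA, the more abundant paralogue, measured 21.6, 23.3 and 31.2 FPKM and 23.1, 22.8 and 22.3 FPKM (-0.14 ± 0.17). The pluripotency factors SOX2, NANOG and POU5F1 reached at most 0.0616, 0.00828 and 0.539 FPKM in any of the 6 libraries. IGF1, DPT and PRL were at 0 in all 6 libraries. ESR1 and SFRP2 reached at most 0.0193 and 0.0298 FPKM, and PPARGC1A at most 0.353 FPKM. PPARGC1B, NRIP1 and the reference gene RPLP0 had log2 differences of -0.40, -0.93 and -0.31 and were not called.

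Listed genes of adhesion, matrix and cytoskeleton rose in larger shares than all genes (6.11%). These lists were chosen with earlier results of these data known, so the shares are a description and no support for a change of the lists. Of 28 adhesion and matrix genes, 15 were tested, 9 rose and none fell, with a median log2 fold change of 1.17. CDH1, the E-cadherin whose binding depends on calcium, measured 4.9, 5.12 and 4.99 FPKM in the control and 8.91, 12 and 10.4 FPKM with calcium (log2 fold change 1.04 ± 0.16, adjusted p = 0.0108). MMP13, a collagenase, measured 1.56, 1.74 and 0.47 FPKM and then 27.1, 28.9 and 47.6 FPKM (log2 fold change 4.8 ± 0.46, adjusted p = 0.0032). LAMB3, a chain of a basement membrane laminin, measured 0.409, 0.828 and 1.29 FPKM and then 12.3, 11.4 and 27.2 FPKM (log2 fold change 4.18 ± 0.45, adjusted p = 0.0037). In all 3 genes no calcium library overlapped a control library.

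Of 26 genes of the actin and tubulin cytoskeleton, 22 were tested, 13 rose and 1 fell. Of the 19 above the filter level in both groups, 11 rose and 1 fell. ACTB, beta-actin, often used as a reference gene, measured 615, 680.4 and 767 FPKM in the control and 1463, 2184 and 1499 FPKM with calcium (log2 fold change 1.3 ± 0.22, adjusted p = 0.0144). PALLD, an actin cross-linker, measured 1.59, 1.05 and 1.11 FPKM and then 7.98, 18.3 and 14 FPKM (log2 fold change 3.26 ± 0.32, adjusted p = 0.00336). TUBB2A, a beta-tubulin, measured 1.07, 1.4 and 1.47 FPKM and then 7.68, 8.94 and 6.7 FPKM (log2 fold change 2.48 ± 0.20, adjusted p = 0.0019), and MAP2, a microtubule-associated protein, rose by 2.79. The count was 8 without calcium replicate 2, control replicate 1 or control replicate 2, and the median of the list was 0.99.

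The circadian clock gave 1 rise and 1 fall among 16 tested of 18, a called share of 12.5% beside 9.52% of all genes. NFIL3, a repressor that also responds to cytokines, measured 4.05, 3.68 and 4.44 FPKM in the control and 13.1, 13.3 and 12.9 FPKM with calcium (log2 fold change 1.67 ± 0.14, adjusted p = 0.00238), while HLF, an activator, had a log2 fold change of -1.29 and fell. Leaving out any 1 library left 1 clock gene called. PER1 measured 1.9, 1.63 and 3.38 FPKM and 3.5, 3.21 and 3.06 FPKM and was not called. In the MYC network and ribosome biogenesis all 24 genes were tested, none rose and 1 fell (2 without calcium replicate 2 or 3). MXD3, a partner of MAX, fell from 8.87, 10.9 and 6.26 FPKM to 2.83, 2.7 and 2.65 FPKM (log2 fold change -1.6 ± 0.22, adjusted p = 0.00712). MYCN, a paralogue of MYC named after its values were seen, had the lowest value of the list (-2.36 ± 0.78, adjusted p = 0.113) and was not called. In all, 5 of the 24 had an unadjusted p under 0.05 and limma-voom called 2. MYC measured 10.1, 11.6 and 10.3 FPKM in the control and 16.6, 20.9 and 9.73 FPKM with calcium (log2 fold change 0.49 ± 0.27, not called).

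The largest falls were smaller than the largest rises. For context, 87 of 118 tested cell cycle and replication genes fell, and that list is not described further. That count was 40 without calcium replicate 2, 35 without control replicate 1 and 42 without control replicate 2. Outside that list, among genes with a mean of at least 1 FPKM, a length of at least 200 bases and groups that did not overlap, the 10 largest falls ranged from -2.32 to -3.13 on the log2 scale. Several have known roles in proliferating cells. TCF19 fell from 19.8, 32.9 and 18.8 FPKM to 3.76, 3.75 and 3.66 FPKM (log2 fold change -2.6 ± 0.23, adjusted p = 0.00238) and overlaps POU5F1, so its reads are uncertain. The log2 fold change was -2.48 for CDCA7, a chromatin factor, -2.33 for CDKN2C, a cyclin-dependent kinase inhibitor, and -2.33 for HASPIN, a mitotic histone kinase. PRRT1B fell from 7.43, 12.8 and 7.2 FPKM to 0.649, 1.87 and 0.851 FPKM (log2 fold change -2.99 ± 0.39, adjusted p = 0.00607). The others were RIBC2 (-2.54), GNG13 (-2.43), AL021391.1 (-2.41), UMODL1 and AL121580.1, and, as the rule that chose these 10 asks, every calcium library lay below every control library. That held for 13.7% of all genes tested.

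In the presence of DES, the number of genes called between calcium and no calcium varied with the fit. The comparison of DES with calcium against DES called 16 of 14376 genes (0.111%), 1 higher and 15 lower, and 1830 had an unadjusted p under 0.05. With all groups of the series in one fit 148 were called. The count was 50 without DES replicate 1, 5 without DES replicate 2 and 0 without any 1 of the libraries with DES and calcium (limma). With the replicate numbers as a block, which pair these libraries, limma called none (2302 with an unadjusted p under 0.05), and limma-voom on recovered fragments without the block also called none. Of the 879 genes that rose with calcium alone, 540 (61.4%) had a positive difference with DES, compared with 50.5% of all genes, and the median difference was 0.15. Of the 489 genes that fell, 267 (54.6%) had a negative difference with DES, compared with 48.8% of all, with a median of -0.05. Genes chosen for a large value in 1 comparison tend to have smaller values in another, so these medians are a description. The effect of calcium with DES minus that without was called for 550 genes (3.83%), 362 negative and 188 positive. It was called for 195 genes with all groups in one fit and for 227 without the filter. Without 1 library the number was 186 (control replicate 1), 179 (control replicate 2), 295 (calcium replicate 1), 292 (calcium replicate 2), 846 (DES replicate 1), 215 (DES replicate 2), 257 (DES replicate 3), 245 (DES with calcium replicate 1) and 333 (DES with calcium replicate 3).

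Levels with DES alone are given here for a few of the named genes, and their part in the differences of effects was not tested. HSPA6 measured 1262, 993 and 644 FPKM with DES and 898, 501 and 1109 FPKM with DES and calcium, against the values under 0.3 FPKM in the control. PPP1R15A measured 179.6, 163 and 124 FPKM with DES and 161, 129.9 and 163 FPKM with both. DUSP1 measured 65.5, 54.1 and 36.9 FPKM with DES and 84.5, 71.7 and 65.9 FPKM with both. In HSPA6 and PPP1R15A the libraries with DES and calcium overlapped those with DES, in DUSP1 they lay just above them, and in all 3 genes every library with DES alone was above every control library. LIF measured 0.434, 0.202 and 1.67 FPKM with DES and 1.24, 0.734 and 0.998 FPKM with both, far below its calcium level (difference of effects -7.44, adjusted p = 0.00253, limma). F2RL1 measured 0.0897, 0.253 and 0.837 FPKM with DES and 0.396, 1.09 and 0.395 FPKM with both (difference -5.45, adjusted p = 0.00399). FOS measured 19.9, 9.32 and 4.47 FPKM with DES and 135, 173 and 88.4 FPKM with both, which did not overlap but were not called (log2 difference 3.75, adjusted p = 0.124, limma). Its difference of effects was -4.41 (adjusted p = 0.00959, limma). Every FOS library with DES alone was above every control library, and the libraries with both overlapped those with calcium alone. The part of the level with DES alone in this difference was not tested. PLK3 measured 2.66, 2.09 and 3.73 FPKM and then 9.93, 21.6 and 10.4 FPKM, also without overlap and not called (2.21, adjusted p = 0.144). For PLK3 the difference of effects was not called either (-0.86, adjusted p = 0.407). CISH measured 9.52, 11.8 and 14.7 FPKM with DES and 4.25, 3.43 and 6.16 FPKM with both, a log2 difference of -1.38 that was not called (adjusted p = 0.176), beside -1.26 without DES.

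**Figure D5:**
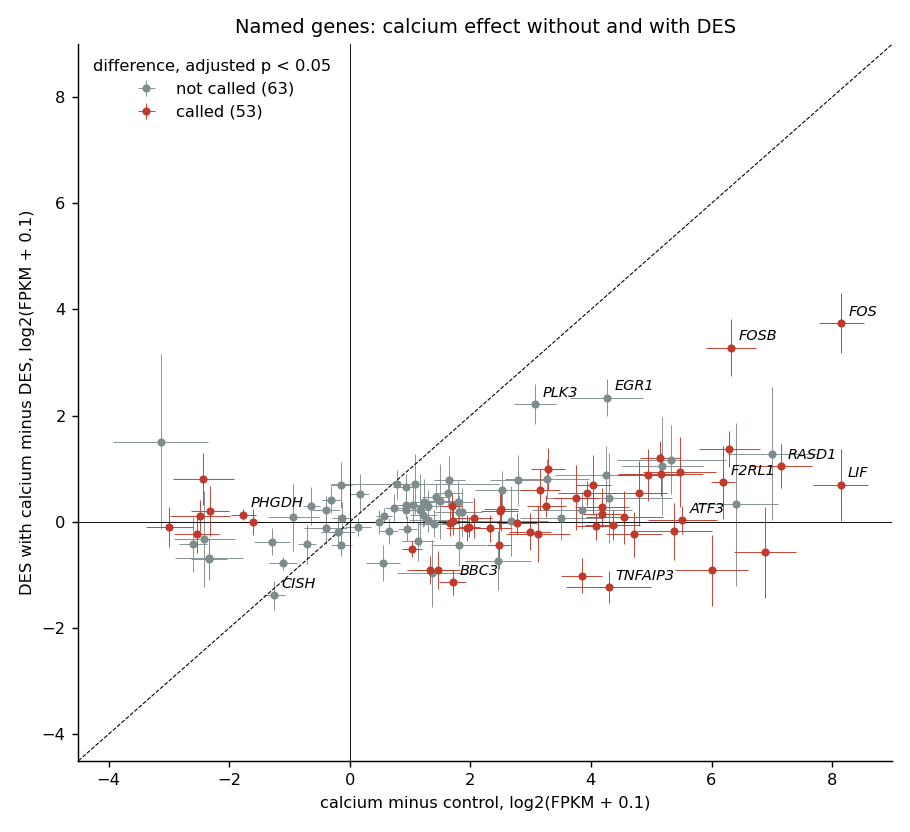
Calcium effect with DES (y axis, DES with calcium minus DES) against the calcium effect without it (x axis, calcium minus control), both in log2(FPKM + 0.1), a point per named gene, coloured where the difference of the effects is called. Most genes with a large effect on the x axis lie near 0 on the y axis. FOS lies at 3.75 on that axis, a difference that was not called, and FOSB also lies well above 0.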

How the data were processed

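Total RNA from MDA-MB-453 cells was enriched for mRNA through its poly-A tail and sequenced by the authors. The deposited table gives FPKM for every gene in each library, beside the length and annotation of the gene. The submitters' processing notes name HISAT2 2.0.5, featureCounts 1.5.0-p3 and GRCh38.p14, and the study's methods name DESeq2 and edgeR, neither of which was run here. After multiplication by gene length, 100% of the FPKM values were whole multiples of 1 step per library (tolerance 0.01), which gave back between 15246217 and 28424805 fragments on genes per library in the 6 libraries. The library size behind the FPKM was 1.01 to 1.15 times these fragments. At most 0.791% of genes with enough fragments had equal values in a pair of libraries. A count of 0 allows up to 3 fragments, and bounds cover counting error only.

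Genes with a mean of at least 0.5 FPKM over the 6 libraries were tested with limma 3.58.1 in R 4.3.3 (lmFit, eBayes with a trend) on log2(FPKM + 0.1), fitted to the compared groups alone, two-sided, adjusted by Benjamini-Hochberg over all genes tested, threshold 0.05. Fold changes are on this log2 scale, where the change of low genes is understated, and values after ± are standard errors. The interaction (calcium with DES minus DES, less calcium minus control) used 12 libraries. Same-numbered DES and DES with calcium libraries deviated together (correlations 0.150, 0.101 and 0.279), from the data and not the labels. The steps were tested on simulated data. Tables were made in Python 3.11.15 (pandas 2.3.3, numpy 2.4.6) and plots in matplotlib 3.10.9.

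The 36 gene lists hold 752 genes, of which 601 were tested. The members and lists were chosen with earlier results of these data known. Genes named are the 10 largest called rises and falls with a mean of at least 1 FPKM, a length of at least 200 bases and groups that do not overlap, leaving out the cell cycle list, the first gene and up to 3 called members with the largest change of each list, and the genes of the qPCR list. IL6, TNF, COL1A1, LUM, PGR, SLC24A3, ARC, MYCN, KRT19, MCL1, BCL2L11 and the genes in the last paragraphs of the closing section were named after their values were seen. Alternatives were other scalings and filters, a pseudocount of 1, limma-voom on fragments, arrayWeights, no trend, all groups in one fit, a replicate block and each library left out. Promoters are from RefSeq. A few genes that the rule names are not reported here.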

Additional observations from a re-analysis of the deposited data

Results flagged for a closer look

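The effect of calcium in the presence of DES differed from its effect alone in 550 genes by the interaction term (limma, adjusted p under 0.05), and in 53 of the 116 named genes tested. The difference was negative for 46 of them, all with a positive value for calcium alone. With DES the calcium difference of these 46 was smaller but positive for 26 and negative for 20. The difference of effects was positive for 7, and the values ran from -7.46 to 3.24 on the log2 scale. Because most named genes were chosen for a large change with calcium alone, negative values among the genes that rose, and positive ones among those that fell, follow in part from that choice. HSPA6, PPP1R15A, DUSP1 and FOS were among the genes above every control library with DES alone. The part of that level in the difference was not tested.

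The difference was -7.46 for AC004264.1, -7.44 for LIF, -6.92 for AC025259.3, -6.09 for RASD1, -5.56 for AREG, -5.52 for TNFAIP3, -5.48 for ATF3 and -5.45 for F2RL1. A second group of genes had -4.94 for HSPA6, -4.93 for GEM, -4.86 for DLL4, -4.53 for NR4A3, -4.47 for CTGF, -4.42 for NOV, -4.41 for FOS, -4.26 for MMP13, -4.26 for TGFB2, -4.18 for ADM, -4.06 for NR4A2 and -4.03 for CYR61. Values of moderate size were -3.95 for NR4A1, -3.90 for LAMB3, -3.40 for DUSP1, -3.35 for S100A6, -3.34 for RELB, -3.30 for ANXA3, -3.17 for HSPB1 and -3.04 for FOSB. Closer to 0 lay -2.97 for PALLD, -2.91 for TUBB2A, -2.85 for BBC3, -2.80 for PPP1R15A, -2.55 for CDKN1A, -2.45 for HSPA1B, -2.37 for WNT9A, -2.29 for ERRFI1, -2.28 for KLF4, -2.27 for GAB2, -2.23 for NFKBIA, -2.09 for DUSP10 and -2.06 for HSPA1A. The smallest negative differences were -1.98 for IL6R, -1.71 for RCAN1, -1.69 for NFIL3, -1.55 for CDH1 and -1.40 for PFKP. The positive differences, all in genes that fell with calcium alone, were 1.59 for MXD3, 1.90 for PHGDH, 2.31 for RIBC2, 2.52 for UMODL1, 2.59 for CDCA7, 2.89 for PRRT1B and 3.24 for GNG13.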

How the results depend on the processing

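Of 20 alternatives for calcium against control, 12 gave a count of called genes within 1.5 times of 1368. With all groups in one fit 822 were called (168 lower), with arrayWeights 2596 (1516 higher, 1080 lower), without the filter 648 (435 and 213), and without the eBayes trend 314 were lower. Leaving out each library gave 434 to 1293 called genes, 333 to 766 higher and 99 to 527 lower. With a replicate block 891 were called (286 lower). Same-numbered control and calcium libraries did not deviate together (correlations 0.0610, 0.0531 and -0.0612), and control replicate 2 correlated best with calcium replicate 3 (0.0645). For DES with calcium against DES, 148 genes were called with all groups in one fit, 0 with limma-voom, 7 without the filter, 0 with a pseudocount of 1, 8 with quantile normalization, 0 with the replicate block and 0 to 50 without each library. The difference of effects was called for 195 genes with all groups in one fit, 227 without the filter, 631 with the replicate block and 179 to 846 without each library.

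Of 101 named genes that were called, 54 were called under every alternative and none changed direction. The 4 that reversed were not called: HSPA5 (-0.28 to 0.00143 without each library, the highest without calcium replicate 3), ATF4 (-0.14 with quantile normalization, -0.024 to 0.33 without each library, the lowest without control replicate 2), HMOX1 (-0.11 to 2.91, the lowest without control replicate 2) and ESRRA (0.046 with arrayWeights, -0.25 to 0.021 without each library, the highest without control replicate 3). The cause of these shifts was not tested. Of 684 list medians under alternatives, 80 moved by over 1 SD. With 3 libraries a group and control replicates of 15246217 to 28424805 fragments, genes near the filter and changes within the spread of the control could not be resolved.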

Other observations

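Keratin genes, a family chosen after its values were seen, were among the other rises. Of 13 tested, 9 rose and none fell (6.11% and 3.4% of all genes). Of the 13, 5 passed the filter only through calcium, and of the other 8, 6 rose. Without calcium replicate 2, 5 of the 13 were called. KRT17, a keratin of basal and activated epidermis, measured 0.0494, 0.0907 and 0.0387 FPKM in the control and 1.99, 8.1 and 3.67 FPKM with calcium (log2 fold change 4.66 ± 0.54, adjusted p = 0.0040, limma), and KRT16 measured 0.075, 0.0191 and 0.147 FPKM and then 2.55, 5.36 and 4.04 FPKM (log2 fold change 4.5 ± 0.45, adjusted p = 0.00343). KRT17 was the only 1 of the 6 basal and myoepithelial markers above the filter, and their summed level was 0.308 to 0.564 FPKM in the control and 2.58 to 9.12 FPKM with calcium, with KRT14 at 0 in the control. Other called genes were also chosen after their values were seen, and no enrichment was tested. IL1RN, the interleukin-1 receptor antagonist, went from 0.124, 0.116 and 0.26 FPKM to 4.99, 5.45 and 5.29 FPKM (log2 fold change 4.37 ± 0.31, adjusted p = 0.0013). OVOL1, a factor of epidermal differentiation, rose by 2.59 while its paralogue OVOL2 fell (-1.11), and rises were also measured for TINCR, a non-coding RNA of epidermal differentiation (2.51), AQP3, a glycerol channel (2.41), and ALOXE3, an epidermal lipoxygenase (2.04). Keratins share near-identical stretches, which leaves the level of each uncertain.

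Genes with immune roles outside the lists, picked in the same way, were called in both directions. CCL22, a chemokine, measured 0.0845, 0.097 and 0.434 FPKM in the control and 8.84, 15.8 and 10.8 FPKM with calcium (log2 fold change 5.43 ± 0.45, adjusted p = 0.0021, limma), and TLR2, a receptor of bacterial lipoproteins, measured 0.0534, 0.308 and 0.058 FPKM and then 2.71, 10.9 and 6.81 FPKM (log2 fold change 4.8 ± 0.60, adjusted p = 0.00492). NLRC5, the transactivator of MHC class I genes, rose by 3.34, HLA-B by 3.11 and the interferon lambda genes IFNL1 and IFNL2 by 3.0 and 2.77. HLA-B measured 12.6, 6.08 and 1.15 FPKM in the control libraries and 37.9, 38.8 and 43 FPKM with calcium, with the same order of control libraries as the interferon-responsive genes. IL1R1, the interleukin-1 receptor, fell from 81.6, 50.9 and 91.3 FPKM to 34.2, 26 and 30.4 FPKM (log2 fold change -1.27 ± 0.24, adjusted p = 0.0199), and the complement component C5 and the receptor-like gene IL17REL had log2 fold changes of -1.66 and -2.01 and fell. HLA and interferon lambda genes have near-identical copies, so their levels are uncertain.

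Single falls outside the cell cycle list are given without a shared theme. GHR, the growth hormone receptor, fell from 11.1, 9.42 and 9.96 FPKM to 5.29, 3.77 and 4.31 FPKM (log2 fold change -1.18 ± 0.18, adjusted p = 0.0094, limma). EDN2, a vasoconstrictor peptide, fell from 3.4, 3.7 and 3.84 FPKM to 0.519, 1.29 and 0.599 FPKM (log2 fold change -2.15 ± 0.33, adjusted p = 0.0104), and HR, a corepressor, fell from 3.9, 5.83 and 5.4 FPKM to 0.796, 1.09 and 1.29 FPKM (log2 fold change -2.15 ± 0.25, adjusted p = 0.00402). In these 3 genes the groups did not overlap.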
